A study of Mus musculus with 24 samples.

Results

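The genes described here are 10 immediate early genes that encode AP-1 and Egr transcription factors: Jun, Junb, Jund, Fos, Fosb, Fosl2, Atf3, Egr1, Egr2 and Egr3. They were taken by symbol from a table of H3K27Ac signal per gene, where all 10 were found among 27179 genes. Gene positions are those of RefSeq on GRCm38, the assembly of mm10. All 10 remained after genes with no count in any library were removed, which left 26944 genes. H3K27Ac, acetylation of histone H3 at lysine 27, marks active promoters and enhancers, and it was measured by chromatin immunoprecipitation and sequencing (ChIP-seq) in 4 mouse organs, brain, heart, kidney and liver. Pieces of each organ were either paraffin-embedded after fixation in 10% formalin (FFPE) or flash frozen (Frozen). Chromatin of FFPE tissue was extracted at 95 °C for 20 min, whereas cores of Frozen tissue were crosslinked for 30 min in 1% formaldehyde. The table has 1 column per organ and preservation, 8 in all, which were taken as 8 libraries without replicates. The labels name no strain, sex, age or genetic change, and they do not tell separate animals apart, so p-values measure only the spread among these libraries, which may be technical.

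AP-1 is a dimer of leucine zipper proteins. Jun family proteins pair with themselves or with Fos family proteins, and Atf3 pairs with Jun proteins or with itself. Egr proteins are zinc finger factors that bind GC-rich DNA. Many of these genes are transcribed within minutes of a growth signal, a stress or, in neurons, electrical activity, through factors such as Srf with its Elk cofactors and Creb that already sit at their promoters. In liver and heart they are known to respond to injury and load. The signal measured here is an acetylation mark counted per gene, not its RNA.

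The promoters of 5 genes whose H3K27Ac differed between organs, Jun, Junb, Fos, Fosl2 and Atf3, are shown with the matches to motifs known for AP-1, CREB, Egr and general promoter factors. The RefSeq promoter table used here (GRCm38.p6) was matched for 8 of the 10 genes, Egr1 and Egr3 not being among them, and the 250 bases before each start were searched on both strands. The last 120 bases before the start are printed 5′ to 3′ on the strand of the gene, with capitals for matches to the motifs named after them. Fosb, which also differed, is not printed because the window before its listed start lies partly within the annotated gene.
Jun, chr4:95052223-95052342, minus strand: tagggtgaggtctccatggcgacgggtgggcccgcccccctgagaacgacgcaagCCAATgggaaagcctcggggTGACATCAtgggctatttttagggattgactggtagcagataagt
Junb, chr8:84978749-84978868, minus strand: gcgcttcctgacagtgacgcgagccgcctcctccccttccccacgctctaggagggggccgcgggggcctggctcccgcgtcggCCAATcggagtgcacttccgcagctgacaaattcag
Fos, chr12:85473770-85473889, plus strand: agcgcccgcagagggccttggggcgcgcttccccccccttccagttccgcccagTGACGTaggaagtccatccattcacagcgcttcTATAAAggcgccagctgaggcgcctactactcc
Fosl2, chr5:32136352-32136471, plus strand: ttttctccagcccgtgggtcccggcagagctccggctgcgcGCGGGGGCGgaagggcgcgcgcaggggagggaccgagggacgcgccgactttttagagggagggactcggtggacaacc
Atf3, chr1:191183334-191183453, minus strand: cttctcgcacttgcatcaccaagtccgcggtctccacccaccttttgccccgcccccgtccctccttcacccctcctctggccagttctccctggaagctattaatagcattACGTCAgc

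The Jun window held TGACATCA, the variant AP-1 site known from the JUN promoter, from 45 to 38 bases before the start. This motif was present in 2.93% of all 32851 promoter windows. Fos held the cAMP response half-site TGACGT from 66 to 61 bases before the start and the TATA motif TATAAA from 33 to 28 bases before it. Atf3 held the same half-site on the other strand, read as ACGTCA, from 8 to 3 bases before the start. The half-site was found in 6.47% of all windows and in the windows of 3 of the 8 genes, Fos, Egr2 and Atf3, and TATAAA in 12.4% of all windows. The shares here count windows, whereas a gene was counted if any of its windows matched, so they are unlike measures. Egr2 has several windows, not all of which held the half-site. The Egr motif GCGNGGGCG was found in Fosl2 and Fosb and in 4.7% of all windows. A CArG box, the element bound by Srf, was found in Egr2 and in 1.47% of all windows. The motif CCAAT was found in Jun, Junb and Egr2 and in 33.8% of all windows. The full cAMP response element TGACGTCA, which contains TGACGT, and the AP-1 site TGANTCA were in none of the windows of these 8 genes, against 1.55% and 6.75% of all windows. The printed stretches of Jun, Junb, Fos, Fosl2 and Atf3 had GC contents of 57.5%, 69.2%, 64.2%, 71.7% and 59.2%, beside a median of 54.2% over all windows.

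H3K27Ac over these genes differed between organs. Jun, Junb, Fosl2 and Atf3 were lower in brain than in the other organs and Egr3 was higher. Fos, Fosb, Fosl2 and Junb were higher in heart, and Egr1 was lower in kidney. In liver Atf3, Egr1 and Junb were higher and Egr3 and Fosb were lower. Between FFPE and Frozen libraries over the 4 organs, 0 of the 10 genes passed the test, against 3.91% of all genes. This test averages the 4 organs. Within single organs the median of FFPE minus Frozen over the 10 genes was positive in brain and kidney and negative in heart and liver.

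Values are log2 CPM, the log2 of a count plus 0.5 scaled to the size of its library, and differences are differences of log2 CPM with the standard error of the fit. The model, limma with organ and preservation as terms, has 3 residual degrees of freedom, with the FFPE and Frozen libraries of an organ as its replicates. The variance of each gene is drawn toward that of genes of like mean value, so p-values rest largely on the spread of other genes. Each organ, with 2 libraries, was set against the mean of the other 3, with 6 libraries, in two-sided tests with Benjamini-Hochberg adjustment over 26944 genes and a threshold of 0.05. The 4 organ comparisons use the same 8 libraries, so they are not independent of one another. With a prior variance that does not follow the mean value, 0 of the 15 differences called here passed, with adjusted p between 0.0549 and 0.340 by limma. Each of the 15 kept its sign under all 14 alternatives tried, but some of these leave the difference itself unchanged and so could not turn it.

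**Figure D1:**
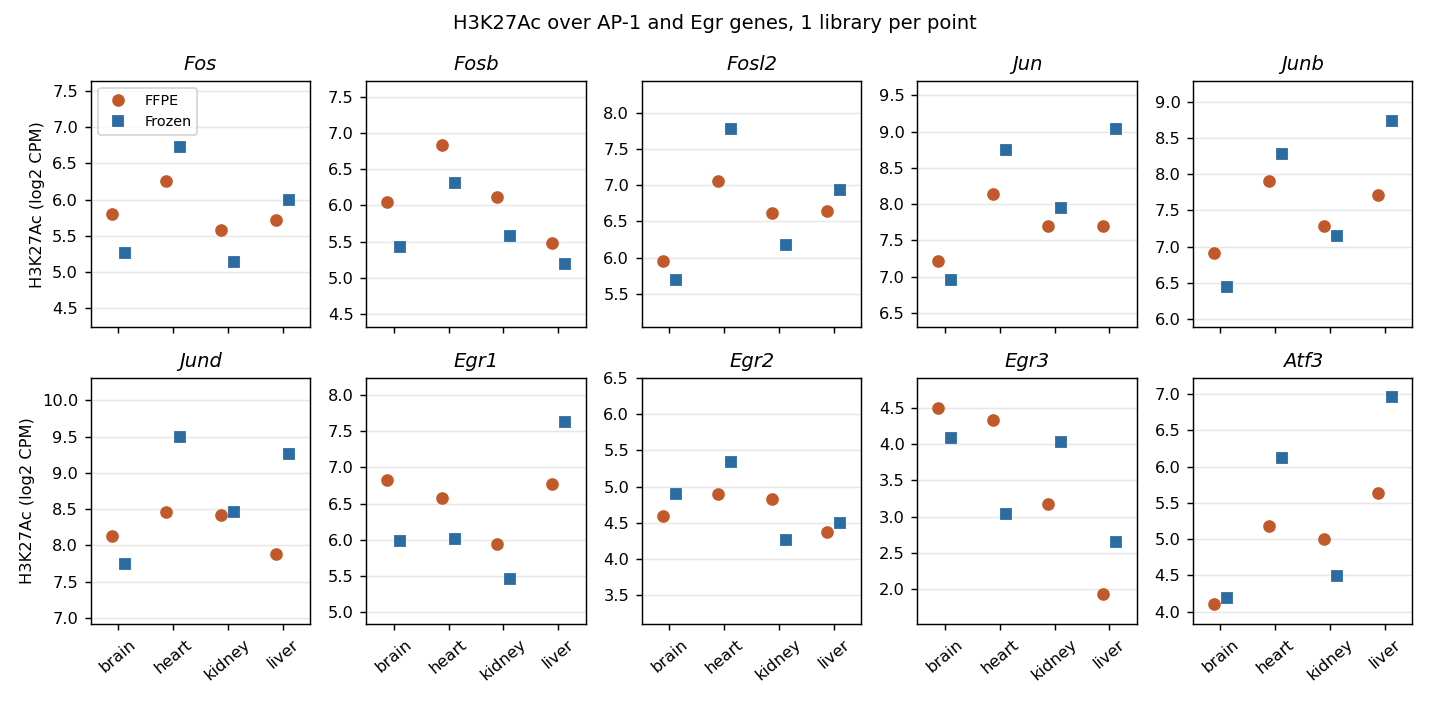
H3K27Ac in log2 CPM (y axis) of the 10 genes in brain, heart, kidney and liver (x axis), with 1 point per library, circles for FFPE and squares for Frozen. Every panel spans the same number of log2 units around its own middle. Atf3 reaches 6.96 in Frozen liver and lies at 4.10 and 4.19 in FFPE and Frozen brain.

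Among the Jun family, Jun (chr4:95049036-95052222) encodes c-Jun, a strong activator and a target of the Jnk kinases. In FFPE libraries Jun had 7.22 log2 CPM in brain and 8.13 in heart, with 7.70 in kidney and 7.69 in liver. In Frozen libraries Jun had 6.96 in brain and 8.75 in heart, with 7.95 in kidney and 9.04 in liver. Both brain libraries were below every other library, and Frozen liver and Frozen heart were the highest. Jun was lower in brain than in the other organs by -1.12 ± 0.26 (SE, adjusted p = 0.00129 by limma, n = 2 and 6). The call was lost without Frozen brain (-0.62, adjusted p = 0.304), and adjusted p by limma ran from 6.03e-05 to 0.304 over the 14 alternatives. In heart the difference was 0.68 ± 0.26 (adjusted p = 0.0622 by limma), in liver 0.58 ± 0.26 and in kidney -0.14 ± 0.26, none of which passed.

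Junb (chr8:84976909-84978748) encodes a Jun protein that is a weaker activator than c-Jun at many AP-1 sites. In FFPE libraries Junb had 6.92 log2 CPM in brain and 7.90 in heart, with 7.28 in kidney and 7.72 in liver. In Frozen libraries Junb had 6.44 in brain and 8.28 in heart, with 7.15 in kidney and 8.73 in liver. The brain libraries again lay below all others, and the liver libraries spanned the values of heart. Junb was lower in brain by -1.17 ± 0.24 (adjusted p = 0.000496 by limma), a call lost without Frozen brain (-0.72, adjusted p = 0.168). It was higher in liver by 0.90 ± 0.24 (adjusted p = 0.00647 by limma), a call lost without Frozen liver (0.35, adjusted p = 0.619). These were the highest adjusted p over the 14 alternatives, and the lowest were 1.89e-05 in brain and 0.000139 in liver. In heart Junb was higher by 0.72 ± 0.24 (adjusted p = 0.0375 by limma), and the call held under 4 of the 14 alternatives. It was lost under both rescalings (0.31 with the same median and spread, 0.41 with quantile normalization), where adjusted p by limma was 0.288 and 0.0715. It was also lost with no filter on low values and without any 1 of 6 libraries, Frozen brain, FFPE or Frozen heart, FFPE or Frozen kidney and FFPE liver. Over these alternatives adjusted p by limma ran from 0.00292 to 0.504.

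Jund (chr8:70697739-70700616) encodes JunD, the Jun protein that resting cells keep at a steady level. In FFPE libraries Jund had 8.13 log2 CPM in brain and 8.46 in heart, with 8.42 in kidney and 7.88 in liver. In Frozen libraries Jund had 7.74 in brain and 9.49 in heart, with 8.46 in kidney and 9.26 in liver. Frozen heart and Frozen liver stood above the other 6 libraries. Jund did not pass in any organ comparison. Its differences were -0.73 ± 0.29 in brain (adjusted p = 0.0670 by limma), 0.66 ± 0.29 in heart (adjusted p = 0.119), -0.05 ± 0.29 in kidney and 0.12 ± 0.29 in liver. The pair of organs farthest apart did pass, with brain below heart by -1.04 ± 0.35 (adjusted p = 0.0329 by limma). That pair was picked by its values, and p is not adjusted for that choice. In the annotation Iqcn lies 705 bp from Jund and the noncoding RNA gene Junos 95 bp from Jun, and signal between such neighbours cannot be told apart by gene.

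Fos (chr12:85473890-85477274), whose protein c-Fos pairs with Jun proteins, is the founding immediate early gene. In FFPE libraries Fos had 5.80 log2 CPM in brain and 6.25 in heart, with 5.58 in kidney and 5.72 in liver. In Frozen libraries Fos had 5.26 in brain and 6.73 in heart, with 5.14 in kidney and 5.99 in liver. Both heart libraries were above all 6 others. Fos was higher in heart by 0.91 ± 0.22 (adjusted p = 0.00343 by limma). The call was lost without Frozen heart (0.55, adjusted p = 0.479), and adjusted p by limma ran from 0.000109 to 0.479 over the alternatives. In kidney Fos differed from the other organs by -0.60 ± 0.22 (adjusted p = 0.129 by limma), and in brain and liver by -0.38 ± 0.22 and 0.07 ± 0.22.

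Fosb (chr7:19302696-19310118) encodes FosB, whose truncated form, known as delta FosB, builds up in neurons after repeated stimulation. In FFPE libraries Fosb had 6.05 log2 CPM in brain and 6.84 in heart, with 6.11 in kidney and 5.48 in liver. In Frozen libraries Fosb had 5.42 in brain and 6.31 in heart, with 5.57 in kidney and 5.20 in liver. Within each preservation heart was the highest organ and liver the lowest. Fosb was higher in heart by 0.93 ± 0.20 (adjusted p = 0.00119 by limma), with no overlap between heart and the other libraries. Without Frozen heart the difference was 0.95 and missed the threshold (adjusted p = 0.0794 by limma, lowest over the alternatives 0.000276). In liver Fosb was lower by -0.71 ± 0.20 (adjusted p = 0.0105 by limma), although FFPE liver overlapped Frozen brain. Without FFPE liver the difference was -0.57 and missed it too (adjusted p = 0.154 by limma, lowest over the alternatives 0.00134). The differences in brain and kidney were -0.18 ± 0.20 and -0.04 ± 0.20.

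Fosl2 (chr5:32136472-32157840) encodes Fra-2, a Fos protein without the strong activation domain of c-Fos. In FFPE libraries Fosl2 had 5.95 log2 CPM in brain and 7.06 in heart, with 6.61 in kidney and 6.64 in liver. In Frozen libraries Fosl2 had 5.70 in brain and 7.78 in heart, with 6.18 in kidney and 6.94 in liver. Both heart libraries were the highest and both brain libraries the lowest of the 8. Fosl2 was higher in heart by 1.08 ± 0.22 (adjusted p = 0.000539 by limma), a ratio of 2.12, and lower in brain by -1.04 ± 0.22 (adjusted p = 0.000573 by limma), a ratio of 0.485. Without Frozen heart the heart difference was 0.66 (adjusted p = 0.323 by limma), and without Frozen brain the brain difference was -0.82 (adjusted p = 0.0554). Over the alternatives adjusted p by limma ran from 4.53e-06 to 0.323 for heart and from 0.000168 to 0.0681 for brain. In kidney and liver Fosl2 differed by -0.28 ± 0.22 and 0.24 ± 0.22, which did not pass.

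Atf3 (chr1:191170296-191183333) encodes a stress-induced factor of the ATF/CREB family. In FFPE libraries Atf3 had 4.10 log2 CPM in brain and 5.17 in heart, with 5.01 in kidney and 5.63 in liver. In Frozen libraries Atf3 had 4.19 in brain and 6.13 in heart, with 4.50 in kidney and 6.96 in liver. Liver was the highest organ within each preservation, and both brain libraries were below all others. Atf3 was lower in brain by -1.42 ± 0.26 (adjusted p = 0.000100 by limma), a ratio of 0.374. This call passed under 13 of the 14 alternatives, more than any of the other 14 called differences, with adjusted p by limma from 5.87e-06 to 0.0644. In liver Atf3 was higher by 1.44 ± 0.26 (adjusted p = 6.70e-05 by limma), a ratio of 2.72, although FFPE liver overlapped Frozen heart. Without Frozen liver the difference was 0.87 and missed the threshold (adjusted p = 0.122 by limma, lowest over the alternatives 2.61e-09). Between the 2 extremes, a pair picked by its values, brain was below liver by -2.15 ± 0.32 (adjusted p = 2.90e-06 by limma), a ratio of 0.226. In heart and kidney the differences of 0.59 ± 0.26 and -0.61 ± 0.26 did not pass.

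Egr1 (chr18:34861207-34864956) encodes a zinc finger factor induced by growth factors and by neuronal activity. In FFPE libraries Egr1 had 6.83 log2 CPM in brain and 6.58 in heart, with 5.94 in kidney and 6.78 in liver. In Frozen libraries Egr1 had 5.99 in brain and 6.02 in heart, with 5.45 in kidney and 7.62 in liver. Kidney was the lowest of the organs within each preservation, and Frozen liver was the highest library. Egr1 was lower in kidney by -0.94 ± 0.24 (adjusted p = 0.0125 by limma). The call was lost with no filter on low values (adjusted p = 0.0899), without FFPE kidney (-1.09, adjusted p = 0.168) and without Frozen kidney (-0.79, adjusted p = 0.517). The lowest adjusted p by limma over the alternatives was 6.53e-05. Egr1 was higher in liver by 1.07 ± 0.24 (adjusted p = 0.00104 by limma), but FFPE liver lay just below FFPE brain. Without Frozen liver the difference was 0.33 (adjusted p = 0.617 by limma, lowest over the alternatives 1.00e-06). In brain and heart Egr1 differed by 0.01 ± 0.24 and -0.14 ± 0.24.

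Egr2 (chr10:67534469-67542188), known for its part in hindbrain patterning and in the myelin of peripheral nerves, spanned the narrowest range of the 10 genes. In FFPE libraries Egr2 had 4.60 log2 CPM in brain and 4.90 in heart, with 4.83 in kidney and 4.37 in liver. In Frozen libraries Egr2 had 4.89 in brain and 5.35 in heart, with 4.26 in kidney and 4.49 in liver. The values rested on 94 to 185 counts per library. Egr2 passed by limma in none of the 4 organ comparisons and in none of the 6 pairs of organs. Its difference farthest from 0 was 0.55 ± 0.25 in heart (adjusted p = 0.130 by limma), where FFPE heart lay just above Frozen brain. The annotated gene overlaps the long noncoding RNA gene Gm32255, so reads of the 2 genes cannot be told apart there.

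Egr3 (chr14:70077317-70082613) encodes an Egr factor induced by activity in neurons and in muscle spindles. Its counts ran from 17 in FFPE liver to 108 in FFPE brain and were the lowest of the 10 genes in every library but FFPE brain, where Atf3 had 82. In FFPE libraries Egr3 had 4.50 log2 CPM in brain and 4.33 in heart, with 3.17 in kidney and 1.94 in liver. In Frozen libraries Egr3 had 4.08 in brain and 3.04 in heart, with 4.03 in kidney and 2.65 in liver. Both liver libraries were below all others, and brain was the highest organ within each preservation. Egr3 was lower in liver by -1.57 ± 0.36 (adjusted p = 0.00134 by limma), a ratio of 0.338. Without FFPE liver the difference was -1.07 (adjusted p = 0.0984 by limma, lowest over the alternatives 4.92e-05). In brain Egr3 was higher by 1.09 ± 0.36 (adjusted p = 0.0249 by limma), with FFPE heart above Frozen brain, and the call held under 8 of the 14 alternatives. It was lost with no filter on low values (adjusted p = 0.0866 by limma), without FFPE brain (0.84, adjusted p = 0.269), without Frozen brain (1.35, adjusted p = 0.0689), without Frozen heart (0.81, adjusted p = 0.0913) and without FFPE kidney (0.90, adjusted p = 0.112). The lowest adjusted p by limma over the alternatives was 0.00328. In heart and kidney the differences of 0.29 ± 0.36 and 0.18 ± 0.36 did not pass.

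**Figure D2:**
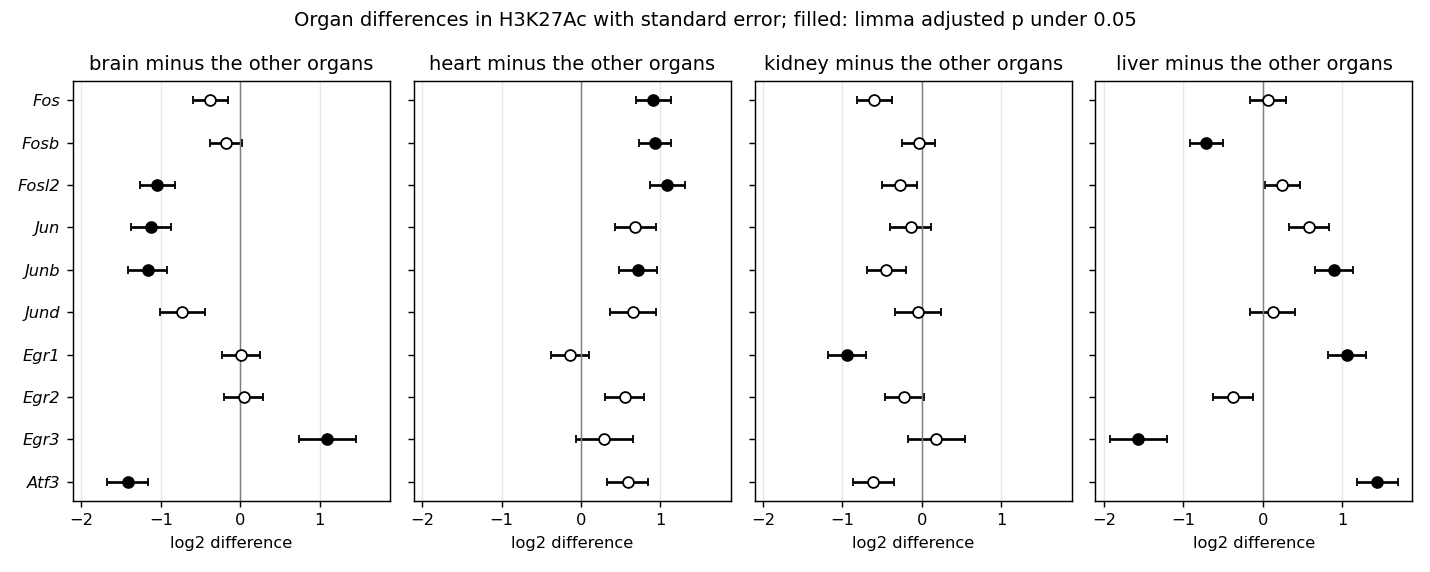
Difference in H3K27Ac (x axis, log2) between the named organ and the other 3 for each of the 10 genes (y axis), from limma. Bars are standard errors, and filled points passed the adjusted p threshold of 0.05. Filled points lie left of 0 for 4 genes in brain and right of 0 for 4 genes in heart.

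Counted over the 10 genes, 4 were lower and 1 was higher in brain, against 13.6% and 8.73% of all tested genes. Heart had 4 higher and 0 lower, against 9.42% and 7.31% of all genes. The 3 genes Fos, Fosb and Fosl2 were called in heart under both rescalings. Of all 26944 genes, 4221 were called in heart with the same median and spread and 4324 with quantile normalization. Kidney had 0 higher and 1 lower, against 3.19% and 2.03%. Liver had 3 higher and 2 lower, against 11.2% and 9.73% of all genes. At an unadjusted p under 0.05 by limma, 6 of the 10 genes passed in brain and 8 in heart, with 3 in kidney and 6 in liver, against 33.8%, 29.6%, 15.3% and 31.3% of all genes. The median difference over the 10 genes was -0.55 in brain and 0.67 in heart, with -0.25 in kidney and 0.18 in liver, beside 0.04, -0.04, -0.02 and -0.06 over all genes. These are whole organs, so more cells of a type and more signal per cell cannot be told apart.

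Several of these counts changed when 1 library was left out, and so did those over all genes. Without Frozen heart 0 of the 10 genes passed in heart by limma, while the share of all genes called there was 3.24%, against 16.7% with all libraries. Without Frozen brain Atf3 alone passed in brain, while the share of all genes was 9.3%, against 22.4% with all libraries. Without Frozen liver 0 of the 10 were called higher in liver and 2, Fosb and Egr3, lower, with 4.66% of all genes higher and 3.5% lower. Without FFPE liver Jun, Junb, Egr1 and Atf3 were called higher and 0 lower, with 11% of all genes higher and 8.65% lower. Frozen heart and Frozen liver also had the widest spread of log2 CPM over all genes, SDs of 2.40 and 2.39, against 1.94 to 2.09 in the other 6 libraries. With all libraries set to the same median and spread, 5 of the 10 genes in brain and 3 in heart, with 1 in kidney and 5 in liver were called. Of all 26944 genes, 7156, 4221, 2234 and 5783 were then called in these organs, against 6030, 4508, 1407 and 5640 as deposited.

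Ordered by mean level, heart was the highest organ for 6 genes (Fos, Fosb, Fosl2, Jun, Jund and Egr2), liver for 3 (Junb, Egr1 and Atf3) and brain for Egr3. Brain was the lowest for 5 (Fosl2, Jun, Junb, Jund and Atf3), liver for 3 (Fosb, Egr2 and Egr3) and kidney for 2 (Fos and Egr1). The highest and lowest organs passed as a pair for 9 of the 10 genes, Egr2 being the exception, against 41.7% of all genes. These pairs were picked by their values, for all genes alike, and p is not adjusted for that choice. Of 30 pairs of neighbours in these orders 2 passed, Egr1 in brain below liver by -0.79 ± 0.29 (adjusted p = 0.0420 by limma) and Egr3 in kidney above liver by 1.31 ± 0.44 (adjusted p = 0.0466 by limma). The other pairs of neighbours did not pass. No such count was made over all genes, and the orders come from the same values as the tests. By pairs of organs, brain was lower than heart for 7 genes, against 12.7% of all genes. Brain was lower than liver for 5 (Fosl2, Jun, Junb, Egr1 and Atf3) and higher for Egr3, against 15% and 11.3% of all genes. Brain and kidney differed for 0 of the 10 by limma, against 10.9% of all genes, and 3 genes had an unadjusted p under 0.05 in that pair, against 21.2% of all genes. Heart was higher than kidney for Fos and Fosl2, against 5.37% of all genes. Heart was higher than liver for Fosb and Egr3 and lower for Egr1, against 8.48% and 8.24% of all genes. Kidney was higher than liver for Egr3 and lower for Junb, Egr1 and Atf3, against 4.71% and 7.05% of all genes.

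The organ differences were also set side by side within each preservation, 1 library against 3, with no test. The brain difference of Jun was -0.62 in FFPE and -1.62 in Frozen libraries, and that of Jund was -0.12 in FFPE and -1.34 in Frozen libraries. In liver, Egr1 differed by 0.33 in FFPE and 1.80 in Frozen libraries, and Atf3 by 0.87 in FFPE and 2.02 in Frozen libraries. Fosb was about as far apart in heart in both, 0.95 in FFPE and 0.91 in Frozen libraries. The direction was shared by 8 of 10 genes in brain and 8 in heart, with 4 in kidney and 8 in liver, beside 73.3%, 70.2%, 60.2% and 66.9% of all genes. Between the highest and the lowest organ, the genes had a median range of 0.95 log2 CPM in FFPE and 1.92 in Frozen libraries. Over all genes the median range was 0.93 in FFPE and 1.23 in Frozen libraries. The range was smaller in FFPE for 8 of the 10 genes and for 69.9% of all genes.

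Preservation itself was compared over the 4 organs. With 4 FFPE and 4 Frozen libraries, 0 of the 10 genes were called, against 2% of all genes higher and 1.91% lower, 3.91% in all. At an unadjusted p under 0.05 by limma there were 4, Fosb, Jun, Jund and Atf3, against 16% of all genes. Fosb was higher in FFPE in 4 of 4 organs, with a difference of 0.50 ± 0.18 (adjusted p = 0.122 by limma). It passed under both rescalings, and its difference ran from 0.45 to 0.62 and its adjusted p by limma from 0.0200 to 0.390 over the 14 alternatives. The differences of Jun, Jund and Atf3 were -0.49 ± 0.22, -0.52 ± 0.25 and -0.46 ± 0.22. Jun and Jund passed when either brain library was left out, with differences of -0.74 and -0.82. Over the alternatives adjusted p by limma ran from 0.0333 to 0.840 for Jun and from 0.0315 to 0.880 for Jund. For the other 6 genes the differences lay between -0.20 (Junb) and 0.26 (Egr1).

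Within single organs the FFPE and Frozen libraries lay apart in opposite directions. Of the 10 genes, 8 had more signal in FFPE in brain and 7 in kidney, but 3 in heart and 1 in liver. Of all genes, 50.5% had more signal in FFPE in brain and 51.5% in kidney, with 48.8% in heart and 52.1% in liver. With the same median and spread in all libraries, the counts of the 10 genes were 8, 7, 5 and 2 in this order of organs. With quantile normalization they were 7, 8, 3 and 3. The medians of FFPE minus Frozen over the 10 genes were 0.41 in brain, 0.43 in kidney, -0.46 in heart and -0.78 in liver, beside 0.01, 0.02, -0.02 and 0.04 over all genes. With 1 library on each side there is no test of preservation here. The 95% Clopper-Pearson intervals below cover counting error only, and reads are not independent molecules.

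In liver, Jun had 944 counts in FFPE and 2977 in Frozen tissue, a ratio of 0.393 (95% interval 0.365 to 0.423). Jund had 1079 counts in FFPE liver and 3480 in Frozen liver, a ratio of 0.384 (0.358 to 0.411). Atf3 had 226 counts in FFPE liver and 703 in Frozen liver, a ratio of 0.398 (0.341 to 0.463). With Junb, at a ratio of 0.496, these are the 4 genes at least 2-fold lower in FFPE liver, against 6.68% of the genes with 40 or more counts over both libraries. Egr1 had a ratio of 0.556 (0.499 to 0.618) in liver and of 1.79 (1.57 to 2.05) in brain, where it had 546 counts in FFPE and 366 in Frozen tissue. Fosb was the gene higher in FFPE liver, at a ratio of 1.22 (1.00 to 1.49). In heart, Jund was at least 2-fold lower in FFPE at a ratio of 0.488 (0.458 to 0.518), against 3.86% of genes. Egr3 was at least 2-fold higher in FFPE heart at a ratio of 2.46 (1.66 to 3.72), against 5.43% of genes, with 86 counts in FFPE and 37 in Frozen tissue. None of the 10 genes was 2-fold apart in brain, against 2.53% of genes higher and 1.83% lower, or in kidney, against 2.5% and 2.76%, and none was 2-fold higher in FFPE liver, against 6.95%.

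Some of these directions turned with the scaling. With the same median and spread in all libraries, FFPE minus Frozen was 0.23 for Jun and 0.38 for Junb in heart and 0.13 for Fosl2 in liver, against -0.62, -0.38 and -0.30 as deposited. With quantile normalization it was -0.080 for Jund in brain and 0.040 for Fos and 0.20 for Fosl2 in liver, against 0.40, -0.27 and -0.30 as deposited. The 4 genes at least 2-fold lower in FFPE liver were not among those that turned. This concerns direction alone, and whether they stayed 2-fold lower after rescaling is not given here.

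**Figure D3:**
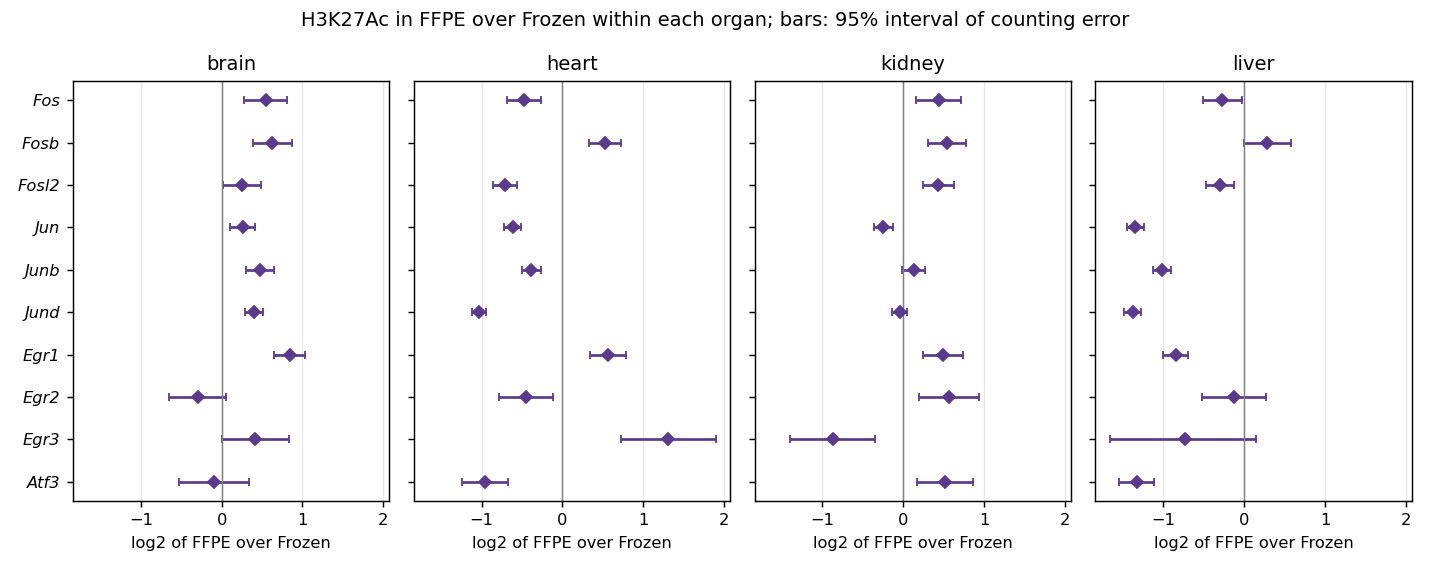
Ratio of H3K27Ac in FFPE to Frozen tissue (x axis, log2) of the 10 genes (y axis) within brain, heart, kidney and liver, 1 library each. Bars are 95% intervals of counting error. In liver 9 of 10 points lie left of 0, against 47.9% of all genes, and in brain 8 of 10 lie right of it, against 50.5%.

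Across the 8 libraries 6 of the genes moved together. The correlation of each gene with the mean of the other 9 was 0.87 for Fos, 0.87 for Fosl2, 0.86 for Junb, 0.84 for Jun, 0.83 for Jund and 0.68 for Atf3. It was 0.38 for Egr2, 0.29 for Egr1, 0.28 for Fosb and -0.44 for Egr3. These Pearson values describe 8 libraries that share depth and scaling within a library, and no p is given. No other set of genes was correlated in this way, so such values are not known to be particular to these genes. Each gene being centred on its own mean, the average over the 10 was highest in Frozen heart (0.58), Frozen liver (0.48) and FFPE heart (0.36), and lowest in Frozen brain (-0.54) and Frozen kidney (-0.33). The genes most like this average, of 13463 above the median level, were Otud1 (0.993), H2bc6 (0.989), Hexim1 (0.987), Plk2 (0.983) and Atp2a2 (0.982), by Pearson correlation over the 8 libraries. Otud1 encodes a deubiquitinase, H2bc6 a histone H2B, Hexim1 an inhibitor of the elongation factor P-TEFb, Plk2 a kinase that is itself an immediate early product, and Atp2a2 a calcium pump of the sarcoplasmic reticulum.

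The remaining genes of the AP-1 and Egr families, 13 in number, include dimer partners and inhibitors. Brain had 2 higher and 3 lower, heart 4 higher and 0 lower, kidney 0 in either direction and liver 1 higher and 2 lower. These counts, and those of the lists after them, stand beside 8.73% of all genes higher and 13.6% lower in brain, 9.42% higher and 7.31% lower in heart, 3.19% higher and 2.03% lower in kidney, and 11.2% higher and 9.73% lower in liver. Egr4, a neuronal member of the Egr family, was higher in brain by 1.65 ± 0.28 (adjusted p = 3.24e-05 by limma). The small Maf genes encode leucine zipper proteins without an activation domain. Mafg was lower in brain by -1.62 ± 0.24 and higher in liver by 2.08 ± 0.24, and Mafk was lower in brain by -1.18 ± 0.21 and higher in heart by 0.98 ± 0.21. Maff was higher in heart by 1.21 ± 0.21. Jdp2, a repressor that pairs with Jun, was higher in heart by 0.82 ± 0.22 and lower in liver by -1.22 ± 0.22. Fosl1, which encodes Fra-1, was higher in heart by 1.09 ± 0.37 (adjusted p = 0.0366 by limma) and lower in liver by -0.99 ± 0.37 (adjusted p = 0.04996). Nab1 and Nab2, corepressors of Egr proteins, passed in 0 of the 4 organ comparisons, with Nab1 in kidney at -0.61 ± 0.21 (adjusted p = 0.0977 by limma).

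Of 23 genes for upstream kinases and factors, 1 was higher and 2 lower in brain, 5 higher and 1 lower in heart, 0 higher and 2 lower in kidney, and 1 higher and 1 lower in liver. As shares of the list, 4.35% higher and 8.7% lower in brain and 4.35% each way in liver were below the shares of all genes, and 21.7% higher in heart and 8.7% lower in kidney were above them. Mapk10, which encodes the neuronal Jun kinase Jnk3, was higher in brain by 1.40 ± 0.21 (adjusted p = 7.53e-06 by limma) and lower in heart and liver by -0.81 ± 0.21 and -0.69 ± 0.21. Srf, the serum response factor, was higher in heart by 0.85 ± 0.23 and its cofactor gene Elk3 by 0.95 ± 0.20. Elk4, another of these cofactors, and Map2k7, a kinase of the Jnk pathway, were lower in brain by -0.82 ± 0.21 and -0.58 ± 0.21. Crem, a cAMP-responsive factor, was lower in kidney by -0.79 ± 0.21 and higher in liver by 0.72 ± 0.21, and Mrtfb, a coactivator of Srf, was lower in kidney, at 6.52 log2 CPM against 7.52 in the other organs (adjusted p = 0.00260 by limma).

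Of 27 other immediate early genes, 15 were higher and 0 lower in heart, 4 higher and 13 lower in brain, 1 higher and 1 lower in kidney, and 6 higher and 5 lower in liver. In heart Ccn2 and Ccn1, matricellular proteins, and Ier3 were higher by 1.72 ± 0.21, 1.60 ± 0.22 and 1.45 ± 0.21. Ccn1, Ccn2 and Ier2 were lower in brain by -1.76 ± 0.22, -1.66 ± 0.21 and -1.60 ± 0.24. The 4 genes higher in brain were Arc, Npas4, Nr4a3 and Dusp5, of which Arc, a protein of the synapse, and Npas4, a factor induced by neuronal activity, had differences of 1.54 ± 0.21 and 1.20 ± 0.24. Arc and Nr4a1, a nuclear receptor, were lower in liver by -1.47 ± 0.21 and -1.03 ± 0.24, and Socs3, an inhibitor of cytokine signalling, was higher by 0.96 ± 0.22. Ccn2 was higher in kidney by 0.70 ± 0.21, where Homer1, a scaffold protein of the synapse, was lower by -1.11 ± 0.21. Between FFPE and Frozen libraries 0 genes of these 3 lists were called by limma, and 12 of 63 had an unadjusted p under 0.05, against 16% of all genes. These counts are descriptions of lists chosen with results on these data known.

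Other lists also differed between organs, in part in the same directions. Of 16 housekeeping genes 4 were higher in heart, 3 higher in liver and 5 lower in brain, with 0 in the opposite directions. Their summed level was 968 CPM in FFPE heart and 854 in FFPE liver, against 1186 in Frozen heart and 1168 in Frozen liver, and 588 to 795 CPM in the brain and kidney libraries. The 10 genes themselves summed to 912, 1377, 1052 and 1035 CPM in FFPE brain, heart, kidney and liver, against 686, 2051, 1000 and 2139 CPM in the Frozen libraries of these organs. Of the 2139 CPM in Frozen liver, Jund, Jun and Junb had 615, 526 and 425. Gene by gene, 8 of the 10 in Frozen heart and 7 in Frozen liver lay above their own mean over the 8 libraries. Of 10 endothelial markers 9 were higher in heart and 8 lower in brain, with a summed level of 1057 CPM in FFPE and 1118 in Frozen heart, against 310 to 577 CPM in the other libraries. Of 10 fibroblast and smooth muscle markers 5, and of 10 macrophage markers 3, were higher in heart, and 1 of each list was lower in brain. In liver 3 endothelial markers were lower and 0 higher. There 2 fibroblast and smooth muscle markers were higher and 1 lower, and 0 macrophage markers were called. The organ labels were checked with markers of their own cells: 9 of 10 neuron markers were higher in brain, 10 of 10 cardiomyocyte markers in heart, 9 of 10 nephron markers in kidney and 10 of 10 hepatocyte markers in liver. No marker on these lists was at 0 counts in any library. The part of cell composition and of the housekeeping genes' shift in the differences of the 10 genes was not tested.

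**Figure D4:**
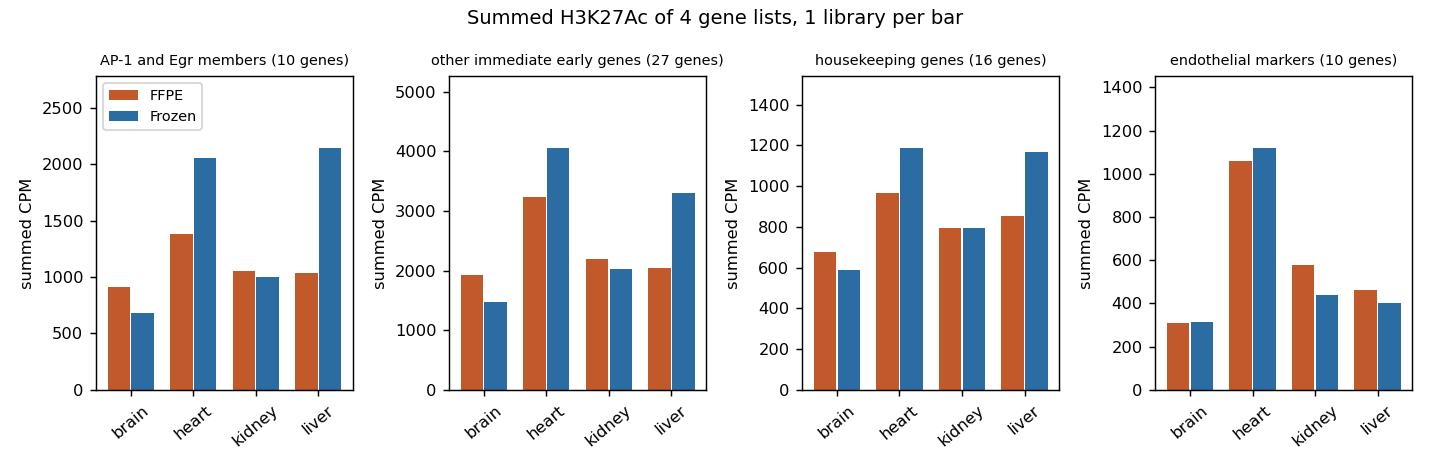
Summed H3K27Ac in CPM (y axis, from 0) of 4 gene lists in each library (x axis, organs), FFPE left of Frozen. The sums of the 10 genes, the other immediate early genes and the housekeeping genes are high in Frozen heart and Frozen liver. Those of the endothelial markers are high in both heart libraries. A sum is weighted toward genes of high signal and does not describe each gene of its list.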

How the data were processed

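H3K27Ac ChIP-seq of 4 organs in 2 preservations was analysed from 1 table. Bowtie2, featureCounts, limma and the build mm10 are named in the submitters' processing notes. Not given in the sources used here are versions, the counted part of a gene and the handling of replicates. There are 16 H3K27Ac samples per the labels, 2 per group, and 8 inputs, with 2 ChIP runs and alternative library kits. The columns carry no replicate number and cannot be matched to runs or kits, so any comparison could mix them. No input was analysed here.

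The values deposited by the authors are log2 CPM. With 0.5 taken off after undoing the log and an effective library size, 100% of them were whole counts in each column (tolerance 0.001). Total counts were 4404789 to 6164562 per library, with scaling factors of 0.749 to 1.22, and 235 genes at 0 counts in all libraries were removed. These counts served for depth and counting intervals, and all tests were made on the log2 values.

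Tests were two-sided and came from limma 3.58.1 (R 4.3.3), by lmFit and eBayes with trend. The comparison of FFPE with Frozen was tried on simulated counts without organ differences, and the organ comparisons were not tried in this way. The alternatives were 2 rescalings, no filter, removal of the lowest 25% of genes, a prior variance without trend, a pseudocount of 2 and leaving out each of the 8 libraries. The 10 genes and all lists were chosen with earlier results of these data known. Named beside the 10 genes are, per list and comparison, the 3 called genes with the largest difference, the partners Fosl1, Egr4, Nab1, Nab2 and Jdp2, and the 5 genes most like the mean of the 10. Arc, Npas4, Nr4a3 and Dusp5 were named for brain after their values were seen. Positions and promoter sequences are from RefSeq (GRCm38), and motifs were matched exactly with Python 3.11.15.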

Additional observations from a re-analysis of the deposited data

Results flagged for a closer look

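For 9 of the 10 genes, Fosb being the exception, FFPE and Frozen tissue differed in opposite directions in 2 organs, each beyond counting error. The same count was not made over all genes, so 9 of 10 is not known to be particular to these genes. Counting error does not cover the scaling. Brain was the only organ with Jund higher in FFPE, and that difference turned to -0.080 with quantile normalization. The difference between the organs was not tested, because each organ has 1 library per preservation. FFPE minus Frozen in brain exceeded that in liver by 1.61 for Jun, 1.49 for Junb, 1.78 for Jund and 1.69 for Egr1 (log2). In kidney it exceeded that in liver by 1.84 for Atf3. In brain it exceeded that in heart by 1.02 for Fos, and in kidney it exceeded that in heart by 1.15 for Fosl2 and 1.01 for Egr2. For Egr3 the value in heart exceeded that in kidney by 2.15, from 86 and 37 counts in FFPE and Frozen heart and 47 and 92 counts in FFPE and Frozen kidney.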

How the results depend on the processing

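No paired analysis was possible because the columns carry no replicate numbers, beyond the organ term of the model, which sets FFPE against Frozen within each organ. Of 50 differences of the 10 genes between organs or preservations, 15 were called, all kept their sign under the 14 alternatives, and each was called under 4 to 13 of them. Of the 35 not called, 16 also kept their sign, and some alternatives cannot change it. With the same median and spread in all libraries, 2234 genes were called in kidney against 1407 as deposited, 1 of the 10 genes for preservation against 0, and the genes higher in FFPE numbered 5 in heart and 2 in liver against 3 and 1. With quantile normalization these were 2264 in kidney, 1 for preservation and 3 in liver. With no filter, 608 genes were called for preservation against 1054 (68.9% higher in FFPE against 51.1%), 919 in kidney, and 0 of the 10 genes in kidney. With the lowest 25% of genes removed, 617 were called for preservation (28.2% higher in FFPE). With a prior variance without trend, 369 genes were called for preservation (88.9% higher), 2421 in brain against 6030 (52.3% higher against 39.0%), 1373 in heart against 4508, 130 in kidney (88.5% higher against 61.1%), 2677 in liver against 5640 and 5760 in pairs of organs against 11293, with 0 of the 10 genes in brain, heart, kidney and liver. FFPE minus Frozen turned to 0.23 for Jun and 0.38 for Junb in heart and to 0.13 for Fosl2 in liver with the same median and spread, and to -0.080 for Jund in brain, 0.040 for Fos and 0.20 for Fosl2 in liver with quantile normalization. The causes were not tested. Leaving out 1 library gave 501 to 1969 genes for preservation, 2505 to 7242 in brain, 872 to 5251 in heart, 265 to 1843 in kidney, 2200 to 6005 in liver and 8729 to 12008 in pairs of organs. Of the 10 genes it gave 0 to 2 for preservation, 1 to 6 in brain, 0 to 7 in heart, 0 to 3 in kidney and 2 to 6 in liver. The lowest counts in brain, heart, kidney and liver came without the Frozen library of that organ (in kidney also without the FFPE library for the 10 genes), and where an organ keeps 1 library it is assumed to vary like the others. Depth limits Egr3 most, with 17 counts in FFPE liver.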
